A study of Mus musculus with 35 samples.

Results

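These data describe m6A-bound RNA of the mouse hippocampus 24 hours after kainate. The libraries were chosen by their labels, as all libraries of RNA pulled down with an anti-m6A antibody at 24 h, and they are 8 of the 35 libraries of the series. They came from 5 KA mice (numbers 67, 98, 97, 79 and 8) and 3 PBS mice (71, 73 and 1), 1 library per mouse. KA mice received kainic acid, an agonist of kainate-type glutamate receptors, into the amygdala to trigger status epilepticus. They were later given lorazepam to make seizures less severe and lower mortality. PBS mice received phosphate-buffered saline by the same route. The animals were male C57BL/6JOlaHsd mice. The series also holds input libraries (total RNA before the pull-down) and libraries made at 2 weeks. All libraries were made with a kit for stranded total RNA, and whether the reads were counted by strand is not given. Reads of genes that overlap on opposite strands may therefore not have been told apart.

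m6A is a methyl group on adenosines inside messenger RNA. It is written by the METTL3-METTL14 complex with its adaptor WTAP, can be removed by FTO and ALKBH5, and is bound by readers such as the YTHDF proteins, which alter the stability and translation of the transcript. Kainate-evoked seizures are known to switch on immediate early genes and neuropeptides in hippocampal neurons and reactive programmes in astrocytes and microglia. A count in the pull-down rises with the amount of a transcript and with the share of it that is methylated, and these cannot be told apart without the input. Likewise, in RNA of a whole hippocampus, fewer cells of a type and less RNA per cell cannot be told apart.

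The sequence element behind the mark is short. GGACT is a common form of the m6A consensus, read here as GGACU in RNA, and 3 of the transcripts around which the results turn carry it in their coding sequence. The windows below are shown 5′ to 3′ in the sense strand of the GENCODE canonical transcript, with the GGACT match in capitals.
Tm4sf1, bases 655 to 679: tggatgaagaGGACTgctgtggttg
Tnfrsf12a, bases 209 to 233: acaagtgcatGGACTgcgcttcttg
Fos, bases 287 to 311: tcaacacacaGGACTtttgcgcaga
Fos, bases 435 to 459: ccatccttacGGACTccccacccag
The Tm4sf1 transcript held 7 matches in 3200 bases, 1 of them in the coding sequence. Tnfrsf12a held 2 matches with 1 in the coding sequence, and Fos held 4 with 2. Stat3 held 1 match, outside the coding sequence. The element is not particular to them: 94.1% of the canonical transcripts of 14196 matched genes of the 16470 tested held it at least once on the sense strand. A match describes the sequence and is not a methylated site.

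Total counts ran from 1652933 to 31989906 per library, and KA mice 67 and 98 were the shallowest, at 1979606 and 1652933. A gene without a count in a library can still have been present at up to 3 counts, which came to 1.81 CPM (counts per library size, TMM-scaled) in KA mouse 98 and 0.0938 CPM in KA mouse 79, for counting error only. The column names of the deposited tables start with a number, called the library set here, whose meaning is not given. Set 3 held KA mice 8, 67 and 98, set 4 held KA mice 79 and 97 with PBS mice 71 and 73, and set 5 held PBS mouse 1. Only set 4 held both groups, so outside it treatment and set cannot be told apart. KA mouse 8 stood apart: 16.4% of its counts were mitochondrial against 1.86% to 8.31% in the other 7, the predicted gene Gm10800 took 8.90% against at most 0.460%, and 1620 of 1681 olfactory and vomeronasal receptor genes had a count against 55 to 1286. Its median correlation with the other libraries was 0.791, against 0.907 to 0.945 for the rest. Results are therefore also given without it and within set 4.

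**Figure D1:**
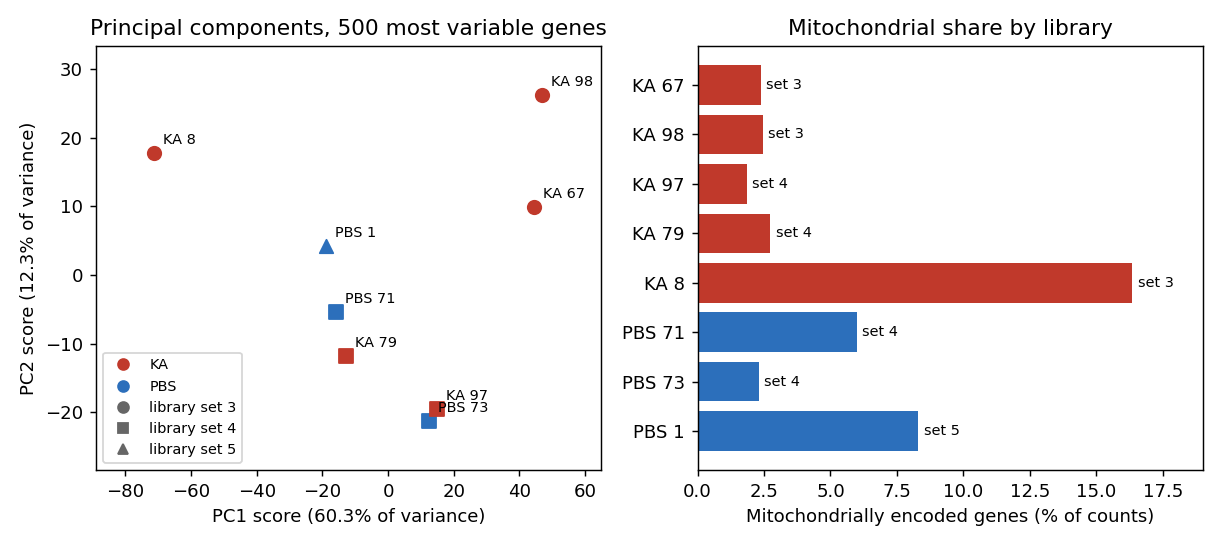
Left, scores of the 8 libraries on the first and second principal components of log2 CPM over the 500 most variable genes, with colour for treatment and shape for library set. Right, mitochondrially encoded genes as a percentage of each library's counts. KA mouse 8 lies at the far left and at 16.4% mitochondrial counts, while KA and PBS libraries of set 4 lie near each other.

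The first principal components did not set the groups apart. The first principal component held 60.3% of the variance of the 500 most variable genes, and its KA and PBS means did not differ beyond the spread (exact permutation test over 56 groupings, two-sided p = 0.661, smallest possible p = 0.0179). Without KA mouse 8 the first component held 45.4% and the exact permutation p was 0.171. KA mice 67 and 98, both of set 3 and both shallow, lay together at one end of that component and KA mouse 8 at the other.

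Tm4sf1 was the gene that rose in m6A-bound RNA over all 8 libraries. It encodes a tetraspanin-like membrane protein of endothelial cells that also marks reactive astrocytes. Its level was 56.0, 43.0, 53.2, 49.3 and 54.3 CPM in KA mice 67, 98, 97, 79 and 8, and 4.77, 3.88 and 5.74 CPM in PBS mice 71, 73 and 1. The lowest KA library was far above the highest PBS library, and this held within library set 4, the only set with both groups. The means were 51.2 ± 5.17 (SD, n = 5) and 4.80 ± 0.932 (SD, n = 3) CPM, which is 3.42 on the log2 scale (SE 0.27, adjusted p = 0.0028 by the quasi-likelihood test of edgeR). It was 1 of 16470 genes tested, or 0.00607%, called higher, and 0 were called lower. At an unadjusted p under 0.05 there were 875 genes, while DESeq2 called 142 higher and 14 lower and voom with sample quality weights 756 and 365 on the same libraries. Without KA mouse 8, edgeR called 43 higher and 2 lower. Tm4sf1 missed the threshold with PBS mouse 71 left out (adjusted p = 0.0952), with PBS mouse 73 left out (0.0567) and with library set as a block (0.0697), at log2 fold changes of 3.41, 3.28 and 3.56.

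The other 4 genes of smallest p among those higher in KA did not pass the adjusted threshold over all 8 libraries, and passed it without KA mouse 8. Tnfrsf12a, the receptor of the cytokine TWEAK, measured 4.48, 6.67, 7.94, 7.63 and 8.25 CPM in KA mice 67, 98, 97, 79 and 8, and 0.852, 0.532 and 0.373 CPM in PBS mice 71, 73 and 1. The KA to PBS ratio was 3.54 on the log2 scale (SE 0.45, adjusted p = 0.083). Tnn, which encodes the matrix protein tenascin-W, measured 4.03, 5.45, 12.7, 9.98 and 8.93 CPM against 0.716, 0.304 and 0.447 CPM. All KA libraries again lay above all PBS libraries, with a KA to PBS ratio of 4.04 on the log2 scale (SE 0.54, adjusted p = 0.083). The serine protease gene Klk6 ran from 3.80 to 8.51 CPM in KA and from 0.152 to 0.477 CPM in PBS libraries, with a KA to PBS ratio of 3.96 on the log2 scale (SE 0.55, adjusted p = 0.083). Nptx2, a neuronal pentraxin secreted at excitatory synapses and induced by activity, measured 46.6, 39.4, 60.2, 117 and 41.2 CPM against 4.91, 6.69 and 7.75 CPM. KA mouse 79 was the highest by a wide gap, and the log2 fold change was 3.25 (SE 0.45, adjusted p = 0.083).

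No gene passed the test in the lower direction over all 8 libraries, so the 5 of smallest p are given with their values. Id4, an inhibitor of basic helix-loop-helix factors found in astrocytes and neural stem cells, measured 13, 17, 16.6, 18.6 and 10.9 CPM in KA mice 67, 98, 97, 79 and 8, and 39.3, 52.1 and 42.5 CPM in PBS mice 71, 73 and 1. The highest KA library was under the lowest PBS library, with a KA to PBS ratio of -1.55 on the log2 scale (SE 0.25, adjusted p = 0.103), and Id4 passed without KA mouse 8 (adjusted p = 0.0429). Sowaha ran from 27.4 to 52.8 CPM in KA and from 83.5 to 127 CPM in PBS libraries (log2 fold change -1.53, adjusted p = 0.157). Ankrd63 ran from 3.64 to 6.27 CPM against 9.39 to 19.1 CPM (log2 fold change -1.72, adjusted p = 0.157). Agt, the angiotensinogen gene, which astrocytes express in brain, ran from 3.17 to 4.85 CPM against 8.95 to 13.1 CPM (log2 fold change -1.52, adjusted p = 0.164). Fam107a, a glucocorticoid-responsive gene, was the most even of the 5, at 115 to 146 CPM in KA and 237 to 251 CPM in PBS libraries (log2 fold change -0.93, SE 0.21, adjusted p = 0.292).

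**Figure D2:**
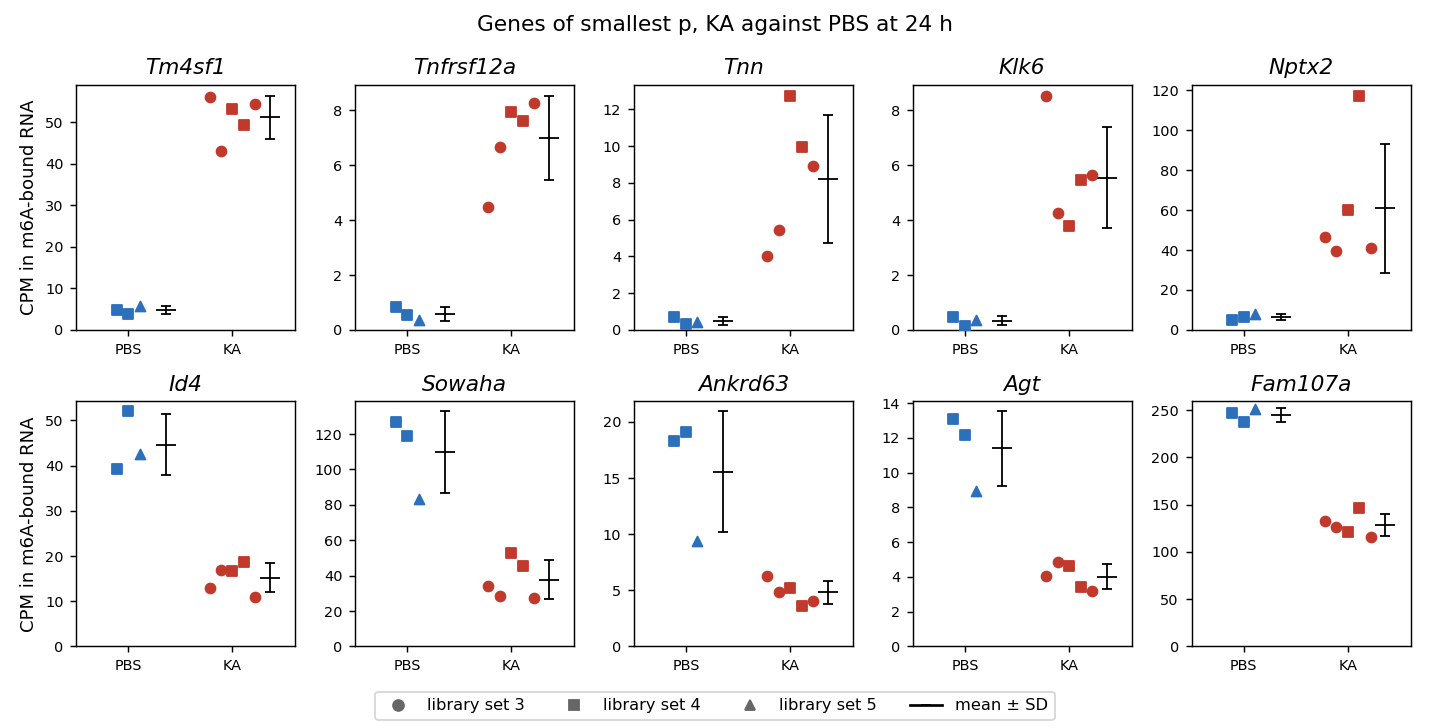
CPM in m6A-bound RNA for the 5 genes of smallest p in each direction, 1 point per library, with shape for library set and bars for the mean ± SD of 5 KA and 3 PBS libraries. In each of the 10 genes no KA library overlaps a PBS library, and Tm4sf1 lies at 43.0 to 56.0 CPM in KA against 3.88 to 5.74 CPM in PBS.

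All 5 KA libraries lay above all 3 PBS libraries in 468 of the 16470 genes (2.84%) and below them in 301 (1.83%). The comparison inside library set 4, chosen after the data were seen, rests on KA mice 97 and 79 against PBS mice 71 and 73. There edgeR called 248 of 16903 genes higher in KA (1.47%) and 108 lower (0.639%), with median log2 fold changes of 1.53 and -1.09. The count moved with single libraries, to 73 higher and 15 lower without PBS mouse 71, 47 and 2 without PBS mouse 73, 187 and 22 without KA mouse 79, and 313 and 69 without KA mouse 97. The libraries outside set 4 had no part in these calls. Of the 248 higher genes, 209 exceeded both set 4 PBS libraries in KA mouse 67, 182 in KA mouse 98 and 173 in KA mouse 8, and 64 did so in PBS mouse 1, which had received no kainate. Of the 108 lower genes, 99, 86 and 102 lay under both set 4 PBS libraries in the same KA mice, but 82 also did so in PBS mouse 1. Over all 8 libraries, 112 of the higher and 28 of the lower genes had KA and PBS groups that did not overlap. The set 4 libraries that gave the calls are among these 8. The choice of genes therefore raises both counts, which cannot be set against the shares over all genes. Transcripts of the set 4 calls held GGACT in 96.2% (higher) and 95.0% (lower) of those matched, with medians of 1.16 and 1.11 matches per kb against 1.04 over all genes tested.

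**Figure D3:**
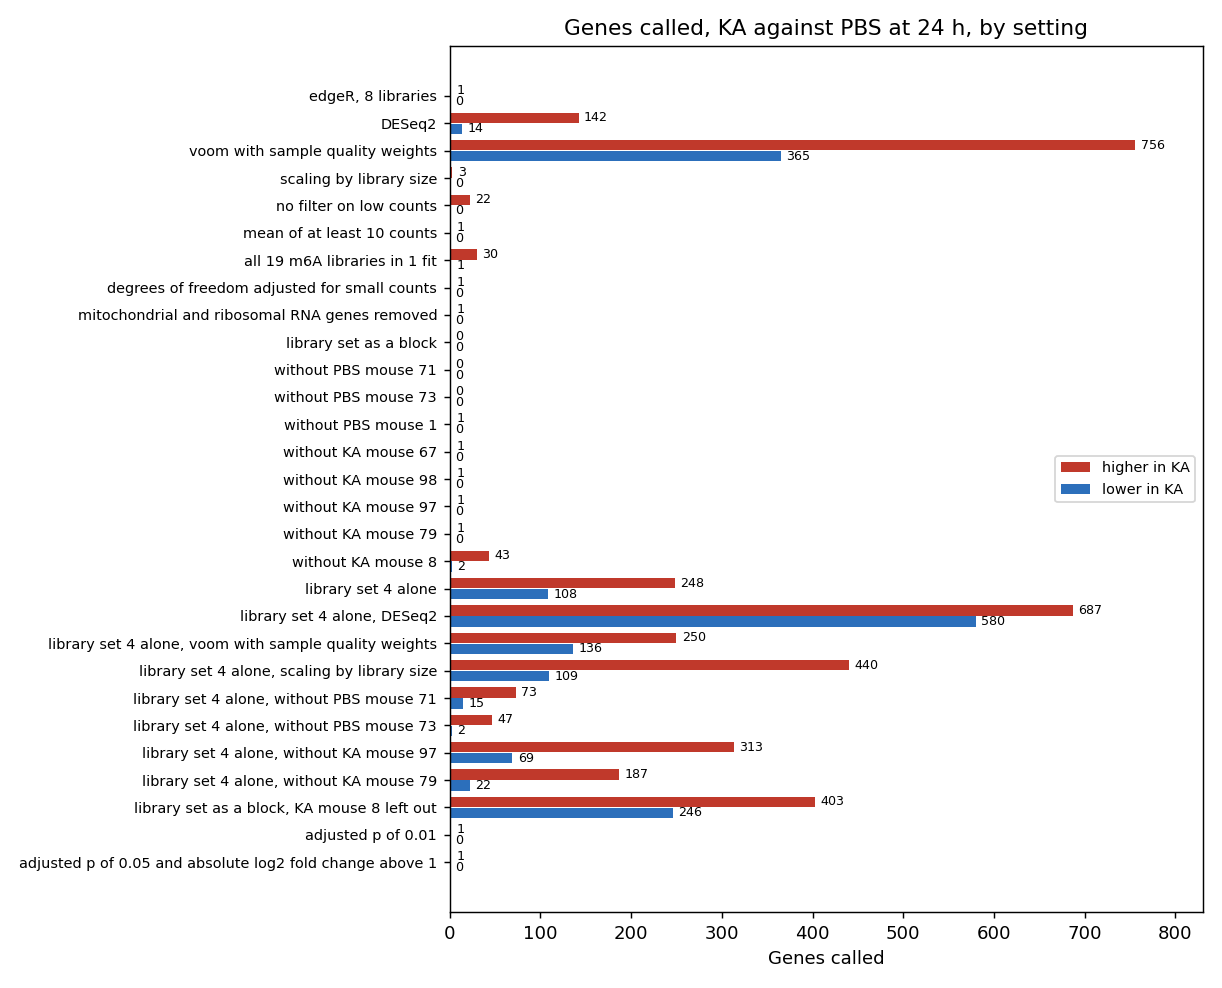
Number of genes called higher (red) and lower (blue) in KA than in PBS m6A-bound RNA at 24 h under each setting, at an adjusted p of 0.05 unless the setting names another threshold. With edgeR on all 8 libraries 1 gene was called, with 248 and 108 inside library set 4 and none with PBS mouse 71 or PBS mouse 73 left out.

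Immediate early genes, transcription factors and regulators switched on by neuronal activity, were higher within set 4 in 10 of 32 measured and lower in none, against 1.47% and 0.639% of all genes. Their median log2 fold change was 1.41 within set 4 and 1.11 over all 8 libraries, against -0.00 and 0.08 for all genes tested. Fos, a subunit of the AP-1 complex, measured 20.6, 10.3, 29.6, 37.7 and 18.1 CPM in KA mice 67, 98, 97, 79 and 8, and 3.95, 2.66 and 1.04 CPM in PBS mice 71, 73 and 1. The groups did not overlap, and the log2 fold change was 3.19 over all 8 libraries (SE 0.55, adjusted p = 0.124) and 3.31 within set 4 (SE 0.25, adjusted p = 0.00526). Atf3, a stress-induced factor of the same family, was higher within set 4 by 3.21 on the log2 scale (adjusted p = 0.0335), but KA mouse 98 at 0.606 CPM lay under all 3 PBS libraries. Others that rose within set 4 were Cyr61 (3.16), Gadd45g (2.70), Maff (2.52), Junb (1.79), Nr4a1 (1.77), Fosl2 (1.51), Ier5 (1.38) and Jun (0.98), in log2 fold change. Of these 8, only Cyr61 was higher in all 5 KA libraries than in all 3 PBS libraries. Jun illustrates the overlap: KA mice 97 and 79 measured 415 and 520 CPM, above the 256 and 217 CPM of the set 4 PBS libraries, while KA mice 67, 98 and 8 measured 171, 115 and 99.1 CPM and PBS mouse 1 measured 50.1 CPM. Npas4, an activity-dependent factor of neurons, ran from 6.67 to 31.8 CPM in KA and from 1.12 to 3.72 CPM in PBS libraries (log2 fold change 3.07, SE 0.64, adjusted p = 0.216).

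Genes that act downstream of activity at the synapse and in peptide release also included set 4 calls in 1 direction only. Among all genes, 1.47% were called higher there and 0.639% lower. Of 20 activity-induced synaptic effectors, Nptx2, Rgs4 and Bdnf were higher within set 4, with a list median of 0.68 there and 0.42 over all 8 libraries. Rgs4, a brake on G protein signalling, ran from 204 to 273 CPM in KA and from 83.3 to 150 CPM in PBS libraries (log2 fold change within set 4 1.44, adjusted p = 0.0181). Bdnf, a growth factor of neurons, measured 38.1, 22.4, 122, 235 and 111 CPM in KA mice 67, 98, 97, 79 and 8, against 25.3 to 30 CPM in PBS libraries. KA mouse 98 lay under all PBS libraries, and the log2 fold change within set 4 was 2.61 (adjusted p = 0.0221). Of 23 neuropeptides and granins, 7 were higher within set 4 (Vgf, Npy, Chga, Scg2, Trh, Gal and Pnoc) and none lower, with a median of 0.64 there and 0.70 over all 8.

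Among these peptides, some held in every library and others did not. Pnoc, the precursor of nociceptin, measured 6.56 to 10.3 CPM in KA and 1.64 to 1.98 CPM in PBS libraries (log2 fold change 2.09, SE 0.34, adjusted p = 0.103 over all 8, and adjusted p = 0.0225 within set 4). Npy, an inhibitory peptide of interneurons that granule cells make after seizures, measured 42.5, 37.6, 37.2, 33.2 and 20.2 CPM in KA mice 67, 98, 97, 79 and 8, and 14.2, 14.0 and 16.0 CPM in PBS mice 71, 73 and 1. The groups did not overlap, with a log2 fold change of 1.21 over all 8 (adjusted p = 0.324) and 1.32 within set 4 (adjusted p = 0.0166). Gal, which encodes galanin, and Trh, which encodes thyrotropin-releasing hormone, were also higher in all 5 KA libraries, by 4.01 and 4.77 on the log2 scale within set 4 (adjusted p = 0.0221 and 0.0194). Vgf, Chga and Scg2, of the secretory granule, were higher within set 4 by 2.00, 1.17 and 2.27, but their groups overlapped over all 8 libraries. Feedback regulators of MAP kinase signalling followed the same form. Within set 4, 6 of 15 were higher (Dusp6, Dusp5, Spry1, Spry2, Spred1 and Spry4), against 1.47% of all genes, at log2 fold changes of 0.94 to 1.33. In 2 of the 15, Spred1 among them, all KA libraries lay above all PBS libraries, against 2.84% of all genes.

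Reactive astrocyte genes, described in astrocytes after brain injury, formed the list with the highest median of 50 over all 8 libraries. It was 2.42 over all 8 libraries and 2.35 within set 4, and all 25 members tested had a positive log2 fold change. Over all 8 libraries 16 of 25 had KA values entirely above PBS values, against 2.84% of all genes, and 13 were called higher within set 4 against 1.47% of all genes. Cd44, a hyaluronan receptor, measured 83.7, 62.4, 108, 101 and 32.4 CPM in KA mice 67, 98, 97, 79 and 8, and 14.3, 12.9 and 9.17 CPM in PBS mice 71, 73 and 1. No library overlapped, and the log2 fold change was 2.68 (adjusted p = 0.103) over all 8 and 2.94 (adjusted p = 0.00259) within set 4. Vim, the intermediate filament vimentin, ran from 86.2 to 300 CPM in KA and from 36.4 to 52.2 CPM in PBS libraries (log2 fold change 2.36 within set 4, adjusted p = 0.00561). Gfap, the filament that defines astrocytes, measured 1270, 859, 2011, 1727 and 340 CPM in KA mice 67, 98, 97, 79 and 8, and 442, 276 and 243 CPM in PBS mice 71, 73 and 1. KA mouse 8 lay under PBS mouse 71, and the adjusted p was 0.519 over all 8 (log2 fold change 1.95, SE 0.56), 0.0415 without KA mouse 8 and 0.0127 within set 4.

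Serpina3n, an inhibitor of proteases secreted by reactive astrocytes, measured 262, 143, 404, 341 and 121 CPM in KA mice 67, 98, 97, 79 and 8, and 59.4, 20.0 and 23.9 CPM in PBS mice 71, 73 and 1. The groups did not overlap, but the log2 fold change of 2.88 did not pass over all 8 (SE 0.56, adjusted p = 0.157) or within set 4 (3.22, adjusted p = 0.0872), and passed without KA mouse 8 (adjusted p = 0.0391). S1pr3, a receptor of sphingosine 1-phosphate, and Nes, the filament nestin, were higher within set 4 by 3.26 and 2.33 on the log2 scale, both at an adjusted p of 0.00387. For Nes, KA mouse 8 at 22.7 CPM lay under PBS mice 71 and 73 at 44.5 and 40.5 CPM. Hspb1, a small heat shock protein of reactive astrocytes, ran from 9.70 to 41.3 CPM in KA and from 0.149 to 1.77 CPM in PBS libraries (log2 fold change 4.76, SE 0.75, adjusted p = 0.103 over all 8, and 4.74, adjusted p = 0.00775 within set 4). Its pseudogene copy Hsp25-ps1 had a log2 fold change of 4.77 within set 4, and how reads were split between the near-identical copies is not known. The remaining members called within set 4 were Clcf1, Osmr, Aspg, B3gnt5, Emp1, S100a10 and Tm4sf1 itself.

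**Figure D4:**
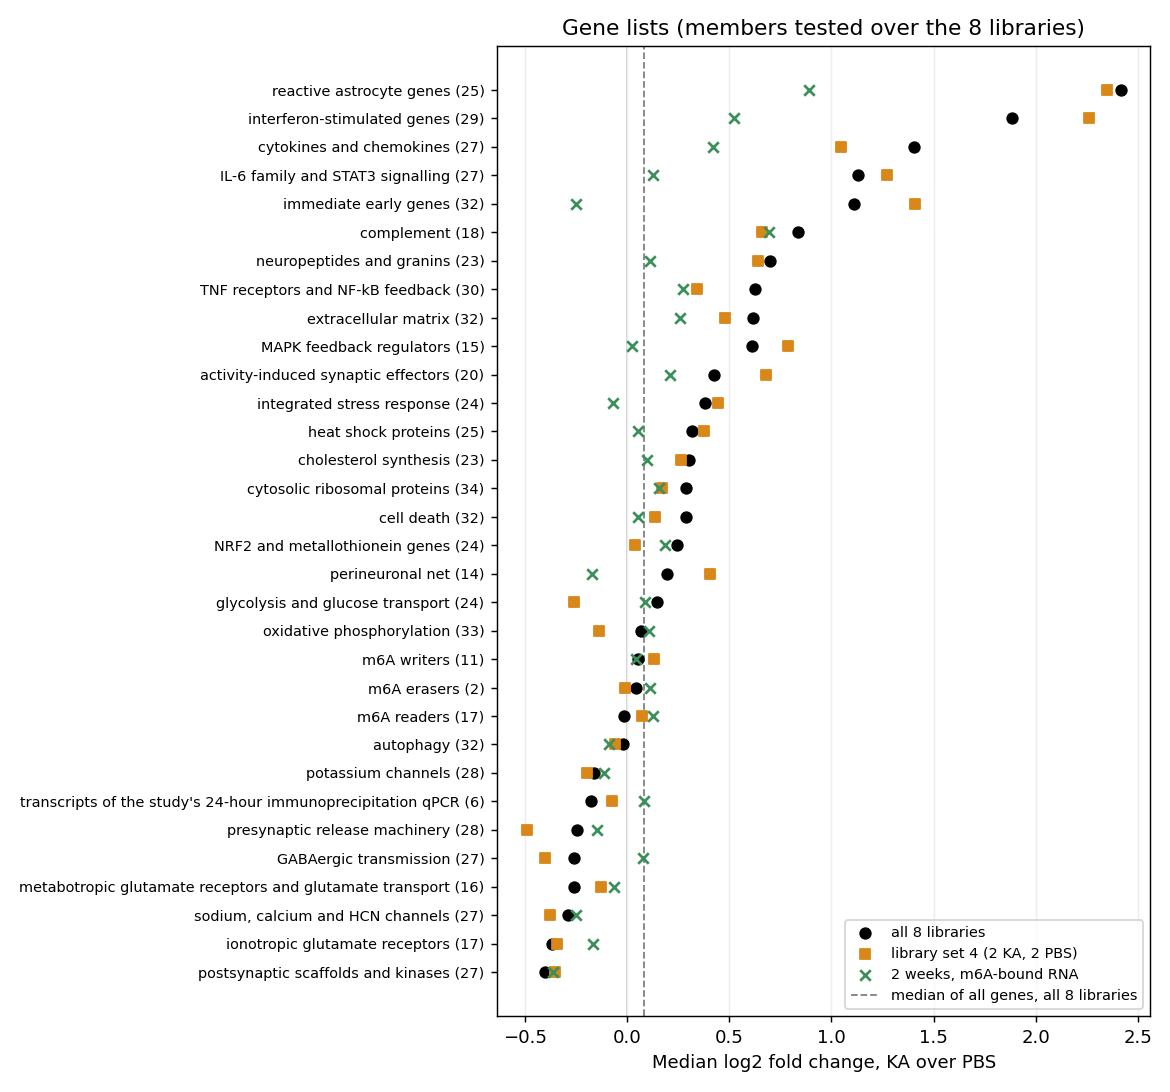
Median log2 fold change of KA over PBS for each pathway and m6A gene list (marker lists are not plotted), with the number of members tested in brackets. Black circles stand for all 8 libraries at 24 h, orange squares for library set 4, green crosses for m6A-bound RNA at 2 weeks, and the dashed line for the median of all genes tested over the 8 libraries (0.08). Over all 8 libraries, reactive astrocyte genes lie highest of the plotted lists, at 2.42, and postsynaptic scaffolds and kinases lowest, at -0.40.

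Cytokine signalling genes were higher in part. Of 27 genes of the IL-6 family and STAT3 signalling, 9 were higher within set 4 and none lower, with a median of 1.28 there and 1.13 over all 8 libraries, and 10 had KA values entirely above PBS values. Over all genes 1.47% were called higher within set 4 and 2.84% lay entirely above. Stat3, the transcription factor that IL-6 type receptors activate, measured 103, 95.1, 96.6, 68.1 and 57.3 CPM in KA mice 67, 98, 97, 79 and 8, and 27.8, 27.7 and 27.1 CPM in PBS mice 71, 73 and 1. All KA libraries were above the PBS libraries, which hardly differed among themselves, and the log2 fold change was 1.61 (SE 0.28, adjusted p = 0.124) over all 8 and 1.57 (adjusted p = 0.0184) within set 4. Osmr, the oncostatin M receptor, and Socs3, the feedback inhibitor of STAT3, were higher within set 4 by 2.18 and 3.19 on the log2 scale (adjusted p = 0.0185 and 0.0347) and did not overlap. Junb, Il13ra1, Cebpb, Fgl2, Cebpd and Il4ra were the other members called. Of the ligands, Lif, Clcf1, Il11, Csf1 and Il33 were higher within set 4 among 27 cytokines and chemokines tested over all 8 libraries (28 within set 4). Ccl12, a chemokine for monocytes, ran from 13.9 to 54.8 CPM in KA and from 0.912 to 3.35 CPM in PBS libraries (log2 fold change 3.53, SE 0.58, adjusted p = 0.103 over all 8, and 0.0679 within set 4).

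Interferon-stimulated genes were shifted together with few calls. The 30 genes of the list summed to 478, 451, 662, 1854 and 712 CPM in KA mice 67, 98, 97, 79 and 8. In PBS mice 71, 73 and 1 they summed to 308, 196 and 212 CPM. KA mouse 79, 1 of the 2 KA libraries of set 4, was the highest by a wide gap. All 29 tested had a positive log2 fold change, with a median of 1.89 over all 8 and 2.26 within set 4, and 17 had KA libraries above all PBS libraries, against 2.84% of all genes. Within set 4 only Stat2 and Gbp3 of 30 tested passed, against 1.47% of all genes (log2 fold changes 1.16 and 2.40, adjusted p = 0.0284 and 0.0317). Gbp2, an interferon-induced GTPase, ran from 18.2 to 54.3 CPM in KA and from 1.82 to 5.62 CPM in PBS libraries, but the log2 fold change of 2.82 had an adjusted p of 0.157 over all 8 and 0.0995 within set 4. Of 30 TNF receptor and NF-kB genes, Tnfrsf1a, Tnfrsf12a, Icam1 and Tlr2 were higher within set 4, with a median of 0.34 there. Of 18 complement genes, C4b was (log2 fold change 1.21, adjusted p = 0.0185), with a median of 0.66. C3ar1, the receptor of the complement fragment C3a, ran from 10.3 to 40.0 CPM in KA and from 4.26 to 8.01 CPM in PBS libraries (log2 fold change 1.79, adjusted p = 0.453).

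Among extracellular matrix genes, 6 of 31 tested in set 4 were higher there (Cd44, Adamts1, Itga5, Tnc, Plaur and Spp1), with a median of 0.48. Over all genes 1.47% were called higher within set 4 and 0.639% lower. Plaur, the urokinase receptor, ran from 2.42 to 3.58 CPM in KA and from 0.076 to 0.307 CPM in PBS libraries (log2 fold change 3.70, SE 0.59, adjusted p = 0.103 over all 8, and 0.0317 within set 4). Spp1, osteopontin, ran from 20.0 to 109 CPM against 4.94 to 12.2 CPM (log2 fold change 3.59 within set 4, adjusted p = 0.0375). The perineuronal net list held calls in both directions: Has2, a hyaluronan synthase, and Tnc were higher within set 4, and the net components Bcan and Hapln1 were lower by 1.72 and 1.15 on the log2 scale.

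Stress genes were called within set 4 in each of 3 lists, against 1.47% of all genes called higher and 0.639% lower. Of 25 heat shock genes, Hspb1, Bag3, Hspa5, Hsph1 and Hspb8 were higher within set 4 and Hspa12a lower, with a median of 0.38. Nupr1, a stress-induced nuclear protein, measured 34.9, 37.0, 73.1, 69.1 and 65.1 CPM in KA mice 67, 98, 97, 79 and 8, and 11.4, 9.05 and 10.1 CPM in PBS mice 71, 73 and 1. The groups did not overlap, with a KA to PBS ratio of 2.47 on the log2 scale (SE 0.35, adjusted p = 0.083) over all 8 and 2.79 (adjusted p = 0.00387) within set 4. With the mitochondrial folate enzyme Mthfd2 it made 2 of 24 integrated stress response genes called within set 4. Srxn1, Mt1 and Nfe2l2 were called among NRF2 and metallothionein genes (25 tested in set 4, median 0.04). Cdkn1a, which encodes the cell cycle inhibitor p21, and Mcl1, an anti-apoptotic BCL2 relative, were the 2 of 32 cell death genes called, both higher.

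Autophagy and energy genes gave few calls, which at these list sizes is near the share over all genes (1.47% higher and 0.639% lower). None of 32 autophagy genes was called within set 4, with a median of -0.06 there and -0.02 over all 8 libraries. Of 33 oxidative phosphorylation genes none was called either (median -0.13 within set 4). Among 24 glycolysis genes Hk2, the inducible hexokinase, was higher (log2 fold change 1.25, adjusted p = 0.0258) and Aldoc, the astrocytic aldolase, lower (-0.85, adjusted p = 0.0338). None of 34 cytosolic ribosomal protein genes was called (median 0.17 within set 4).

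Lists of synaptic and channel genes had medians under 0, with few calls within set 4, where 0.639% of all genes were called lower. Of 17 ionotropic glutamate receptor genes 1 had a positive log2 fold change, and none was called. The median was -0.37 over all 8 libraries, -0.29 without KA mouse 8 and -0.34 within set 4. In 5 of them all KA libraries lay under all PBS libraries against 1.83% of all genes, among them Grik2, a kainate receptor subunit, at 58.2 to 76.4 CPM in KA and 83.5 to 151 CPM in PBS libraries (log2 fold change -0.66, adjusted p = 0.822). Grm5, a metabotropic glutamate receptor, measured 233 to 260 CPM in KA and 381 to 450 CPM in PBS libraries (log2 fold change -0.74, adjusted p = 0.553 over all 8, and 0.0716 within set 4).

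Gabra5, a GABA-A receptor subunit, ran from 52.7 to 93.3 CPM in KA and from 117 to 156 CPM in PBS libraries (log2 fold change -0.81, adjusted p = 0.575). Among 27 GABAergic genes Slc6a11, a transporter that clears GABA into astrocytes, was lower within set 4 by 1.40 on the log2 scale (adjusted p = 0.0185), and its groups overlapped over all 8 libraries. Of 27 postsynaptic genes Camk2a, the alpha subunit of a kinase of the postsynaptic density, was lower within set 4 (-1.08, adjusted p = 0.0208). It measured 1155, 1553, 1357, 1190 and 449 CPM in KA mice 67, 98, 97, 79 and 8, and 2643, 2741 and 1158 CPM in PBS mice 71, 73 and 1. PBS mouse 1 lay within the KA range. Syn2 was the 1 call of 28 presynaptic genes, lower within set 4, and none of 27 sodium, calcium and HCN channel genes was called. Their medians over all 8 libraries were -0.40 (postsynaptic), -0.24 (presynaptic), -0.26 (GABAergic), -0.16 (potassium channels) and -0.29 (sodium, calcium and HCN channels). Without KA mouse 8 they were -0.25, -0.17, -0.12, -0.14 and -0.13 in the same order. The median of all genes tested was 0.08 over all 8 libraries and -0.01 without KA mouse 8.

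Among genes called within set 4 with a mean of at least 5 CPM in the higher group and no overlap over all 8 libraries, the 12 with the largest rise were Hsp25-ps1 (4.77), Hspb1 (4.74), Akr1b8 (4.72), Tnn (4.31), Nptx2 (3.96), Klk6 (3.70), Ch25h (3.62), Spp1 (3.59), Tm4sf1 (3.55), Tlr2 (3.44), Tnfrsf12a (3.41) and Fos (3.31), in log2 fold change within set 4. Ch25h, which makes 25-hydroxycholesterol in macrophages and microglia, measured 5.37, 4.24, 5.6, 15 and 3.26 CPM in KA mice 67, 98, 97, 79 and 8, and 0.447 to 0.852 CPM in PBS libraries. Akr1b8, an aldo-keto reductase, ran from 3.03 to 9.4 CPM in KA and from 0.152 to 0.522 CPM in PBS libraries. The 12 with the largest fall were Ankrd63 (-2.10), Kcnip2 (-1.79), Agt (-1.67), Capn3 (-1.41), Cygb (-1.38), Id4 (-1.37), Mapk3 (-1.36), Sowaha (-1.32), Ypel1 (-1.30), Gpr12 (-1.28), Ccdc74a (-1.23) and Hapln1 (-1.15), on the same scale. Kcnip2, an auxiliary subunit of A-type potassium channels, measured 5.85 to 23.6 CPM in KA and 23.9 to 44.8 CPM in PBS libraries. Mapk3, which encodes the kinase ERK1, measured 12.9 to 23.6 CPM in KA and 25 to 44.7 CPM in PBS libraries, so for both genes the groups lay side by side with almost no gap.

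The machinery of m6A itself gave 1 call, which at these list sizes is near the share over all genes (1.47% higher and 0.639% lower within set 4). None of 11 writer genes and neither eraser was called in any direction within set 4 or over all 8 libraries, and the writers' median log2 fold change was 0.05. Mettl3, the catalytic subunit, measured 41.6, 29.7, 15.1, 18.4 and 125 CPM in KA mice 67, 98, 97, 79 and 8, and 19.9, 10.2 and 27.1 CPM in PBS mice 71, 73 and 1. KA mouse 8 was the highest and the remaining libraries overlapped. The log2 fold change was 1.29 (SE 0.70, adjusted p = 0.983) over all 8 and 0.14 (SE 0.32, adjusted p = 0.864) within set 4. Mettl14, its partner, measured 38.3 to 46.6 CPM in KA and 38.7 to 49.0 CPM in PBS libraries (log2 fold change -0.05, SE 0.22). Wtap had a log2 fold change of 0.18 (SE 0.24), the eraser Fto -0.00 (SE 0.27) and the eraser Alkbh5 0.10 (SE 0.28). Of 17 readers, Ythdf1 and Ythdf2 had log2 fold changes of 0.02 (SE 0.24) and 0.23 (SE 0.25). Igf2bp2, a reader that stabilizes its targets, was higher within set 4 (1.13, SE 0.20, adjusted p = 0.0443), with 13.3 to 27.6 CPM in KA and 6 to 12 CPM in PBS libraries.

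Transcripts chosen for immunoprecipitation qPCR at 24 h were looked up in the same libraries, 6 in all. Mier1, Dido1, Pik3r1 and Atf7ip had log2 fold changes of -0.23 (SE 0.26), -0.16 (SE 0.43), -0.19 (SE 0.22) and 0.06 (SE 0.31), none past the threshold over all 8 libraries or within set 4. Atp2b3, a calcium pump of the plasma membrane, was lower within set 4 (-1.04, adjusted p = 0.0416). It measured 138, 161, 130, 95.0 and 36.3 CPM in KA mice 67, 98, 97, 79 and 8, and 225, 237 and 143 CPM in PBS mice 71, 73 and 1. KA mouse 98 lay above PBS mouse 1, and over all 8 libraries the adjusted p was 0.983. Serpina3n is given above. These counts are of whole genes and carry no information on single sites.

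Markers of hippocampal cells were present in all 8 libraries. The summed level of 10 dentate granule cell markers was 269 to 509 CPM in KA and 426 to 586 CPM in PBS libraries, and that of 10 CA pyramidal cell markers 261 to 399 and 353 to 446 CPM. Lct, a granule cell marker, had the smallest p of the former list, at 0.606 to 9.15 CPM in KA and 13.3 to 31.6 CPM in PBS libraries (log2 fold change -1.89, adjusted p = 0.493), and Bok that of the latter (-0.86, adjusted p = 0.803). The 10 astrocyte markers summed to 1127 to 3253 CPM in KA and 2942 to 3629 CPM in PBS libraries, where Aqp4, a water channel, was higher and Aldoc lower within set 4. Gja1, the astrocytic connexin, measured 64.0, 68.5, 111, 129 and 42.2 CPM in KA mice 67, 98, 97, 79 and 8, and 187, 262 and 137 CPM in PBS mice 71, 73 and 1 (log2 fold change -1.23, SE 0.38, adjusted p = 0.569). Microglial markers (12 genes) summed to 224 to 434 CPM in KA and 254 to 309 CPM in PBS libraries. Of the 12, 6 had a positive log2 fold change, with a median of 0.02 over all 8 libraries and 0.31 within set 4. P2ry12, which marks resting microglia, measured 5.46 to 12.1 CPM in KA and 17.8 to 20.6 CPM in PBS libraries, without overlap (log2 fold change -1.30, SE 0.31, adjusted p = 0.323).

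The summed level of 10 endothelial markers did not overlap between the groups. It was 410 to 533 CPM in KA and 264 to 341 CPM in PBS libraries, with none at 0 in any library. This rested on Pecam1: the other 9 summed to 98.3 to 190 CPM in KA and 89.3 to 184 CPM in PBS libraries, which overlapped. Pecam1, an adhesion molecule of endothelial cells, measured 326, 374, 262, 230 and 311 CPM in KA mice 67, 98, 97, 79 and 8, and 150, 158 and 175 CPM in PBS mice 71, 73 and 1 (log2 fold change 0.90, SE 0.26, adjusted p = 0.519). In that list 7 of 10 had a positive log2 fold change, 1 did not overlap and none was called, and the part of endothelial RNA in the level of Tm4sf1, which endothelial cells also express, was not tested. The 10 excitatory neuron markers summed to 1265 to 3904 CPM in KA and 2572 to 5494 CPM in PBS libraries, and the 10 inhibitory neuron markers to 366 to 621 and 421 to 551 CPM. Oligodendrocyte markers summed to 1906 to 2915 and 1951 to 4442 CPM, oligodendrocyte precursor markers to 151 to 465 and 270 to 517 CPM, and pericyte and smooth muscle markers to 75.2 to 181 and 100 to 163 CPM.

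Markers of tissue next to the hippocampus and of blood varied in level between libraries. Whether such tissue contributed RNA was not tested. The 8 choroid plexus markers summed to 27.2 to 916 CPM in KA and 45.0 to 611 CPM in PBS libraries. Within set 4 they were uneven, at 916 CPM in KA mouse 97 and 27.2 CPM in KA mouse 79. PBS mice 71 and 73 had 45.0 and 64.4 CPM, and the list median log2 fold change within set 4 was 2.66 (5 tested). The 8 thalamic markers summed to 182 to 303 CPM in KA and 155 to 222 CPM in PBS libraries. Monocyte and macrophage markers (10 genes) summed to 33.7 to 157 CPM in KA and 29.0 to 44.8 CPM in PBS libraries, and without KA mouse 8 the KA maximum was 66.7 CPM. Neutrophil markers reached 33.8 CPM in KA mouse 8 and at most 7.2 CPM elsewhere, with up to 5 of 8 at 0 counts. Lymphocyte markers reached 200 CPM in KA mouse 8 and at most 54.0 CPM elsewhere, and erythrocyte markers 40.2 and at most 16.9 CPM. Ependymal markers summed to 17.9 to 33.3 and 18.1 to 20.4 CPM. The 4 markers of sex found in the tables, from a list of male and female genes, gave no call. They summed to 176 to 1054 CPM in KA and 283 to 528 CPM in PBS libraries. KA mouse 8 held the maximum, and without it the KA maximum was 303 CPM. No member of the blood, choroid plexus, ependymal, thalamic or vascular lists was called within set 4.

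At 2 weeks the same test on 6 KA and 5 PBS libraries of m6A-bound RNA called none of 16157 genes by edgeR, with 809 at an unadjusted p under 0.05. The change of the KA effect between the times was tested over all 19 m6A libraries, with separate mice at each time, and 1 of 17440 genes passed (0.00573%), higher at 24 h. This gene was Tm4sf1: its KA effect fell to 0.52 on the log2 scale at 2 weeks, when KA libraries had 11.1 ± 2.03 (SD, n = 6) and PBS libraries 7.74 ± 2.00 (SD, n = 5) CPM. The difference between the effects was 2.89 on the log2 scale (SE 0.32, adjusted p = 0.000355 by edgeR). It was called with each of the 19 libraries left out in turn, by DESeq2 and with library set as a block.

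The genes next by p did not pass. Npas4 had a log2 fold change of 3.07 at 24 h and -0.96 at 2 weeks (difference 4.04, adjusted p = 0.325), Fos 3.19 and -0.18 (difference 3.37, adjusted p = 0.325), and Trib1, a pseudokinase, 2.22 and -0.26 (difference 2.48, adjusted p = 0.368). Fos averaged 23.3 ± 10.6 (SD, n = 5) CPM in KA and 2.55 ± 1.46 (SD, n = 3) CPM in PBS libraries at 24 h. At 2 weeks the means were 8.53 ± 2.28 (SD, n = 6) and 9.82 ± 6.12 (SD, n = 5) CPM, scaled over the 19 m6A libraries. The PBS mean of Fos was thus also higher at 2 weeks. Mthfd2 had a difference of 1.85 (adjusted p = 1.00). In the other direction Gm2445 (a gene at 0 counts in KA mice 67, 98 and 97 at 24 h), Siglech (-1.54), Id4 (-1.31), Lix1 (-1.23) and Gm5940 (0 counts in all KA libraries at 24 h) were next, each at an adjusted p of 1. Siglech, a receptor of microglia, had a log2 fold change of -0.82 at 24 h and 0.72 at 2 weeks. Other genes kept a positive value at both times: Gfap had log2 fold changes of 1.95 at 24 h and 1.89 at 2 weeks, and Npy 1.21 and 1.30. At 2 weeks the immediate early list had a median of -0.25, the reactive astrocyte list 0.89 and the complement list 0.70, against -0.00 for all genes.

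**Figure D5:**
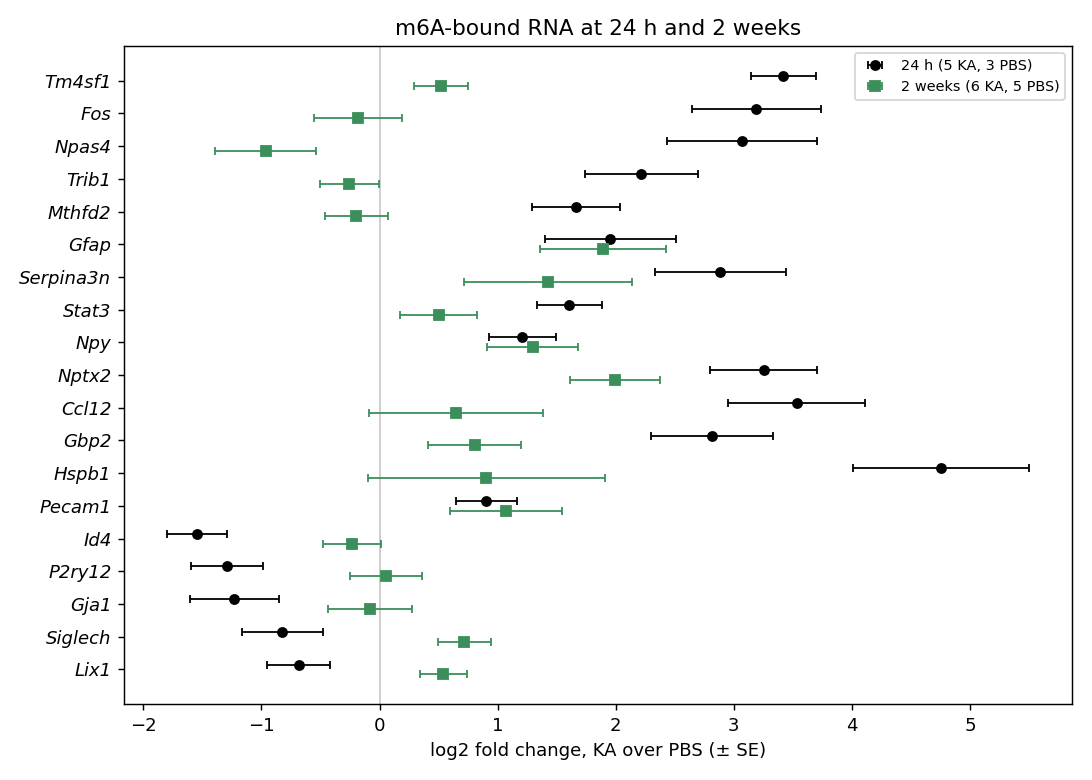
Log2 fold change of KA over PBS in m6A-bound RNA ± SE (edgeR) at 24 h (black, 5 KA and 3 PBS libraries) and at 2 weeks (green, 6 KA and 5 PBS libraries). Tm4sf1, Fos, Npas4 and Trib1 lie well right of 0 at 24 h and near or left of it at 2 weeks except for Tm4sf1 at 0.52, while Gfap lies at 1.95 and 1.89 and Npy at 1.21 and 1.30.

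Whether the pull-down changed beyond the RNA level could be asked only weakly, because 3 of 7 input libraries at 24 h had under 100000 counts and only 1 PBS input was deep, with 12694434 counts. The KA effect on m6A-bound RNA minus that on input RNA was past the threshold in none of 16836 genes by edgeR and none by DESeq2, with 109 at an unadjusted p under 0.05 by edgeR and 21 by DESeq2. With the mouse as a block, 55 of 15997 genes were higher (0.344%) and 33 lower (0.206%). A fit without the mice with a shallow input called 7 higher and 1 lower of 19944 genes, but it sets 3 KA mice against PBS mouse 1 alone. The genes of smallest p without the block were Gm13991, Gm7488, Sftpd, Dmgdh and Gm6505 upwards and Gm6161, Gm10273, Gm9770, Eps8l1 and Pram1 downwards, of which 6 are predicted genes with Gm names.

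The input level of Tm4sf1 was 86.8, 46.7 and 48.9 CPM in KA mice 67, 98 and 8 and 6.22 CPM in PBS mouse 1. The inputs of KA mouse 97 and PBS mice 71 and 73, with 3171, 4621 and 34486 counts in all, held 1, 0 and 0 counts of it and give no level, so the deep inputs set 3 KA mice against 1 PBS mouse. In input RNA the KA to PBS ratio was 3.39 on the log2 scale (SE 0.81, adjusted p = 0.0117 by edgeR), and the effect in the pull-down minus that in the input was 0.02 (SE 0.51, adjusted p = 1.00). Fos in the input measured 31.3, 13.7 and 33.1 CPM in KA mice 67, 98 and 8 and 1.63 CPM in PBS mouse 1, with 0 counts in the 3 shallow inputs (log2 fold change 4.02, SE 0.79, adjusted p = 0.000407), with a difference between pull-down and input of -0.83 (SE 0.86, adjusted p = 1.00). For Gfap and Stat3 this difference was -0.32 (SE 0.92) and -0.29 (SE 0.59). These differences lay within their errors, and a change in the methylated share of the 4 transcripts was not detectable at this depth.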

How the data were processed

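Whole read counts per gene, 1 column per lane (4 lanes a library), were deposited without normalization. The submitters' processing notes name mm10, and which aligner and counter were run is not given in the sources used here. Lanes were summed per library. Another 8 columns match no labelled sample and were not used. The labels give each library's assay, time, treatment and mouse. For 27 of 35 libraries the assay of a column was read from whether its name starts with a library set number.

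KA and PBS were compared with edgeR 4.0.16 (TMM, filterByExpr, robust quasi-likelihood F test, Benjamini-Hochberg adjustment, threshold 0.05) in R 4.3.3. The SE is the absolute log2 fold change over the square root of F. CPM values are TMM-scaled, except the floor of 3 counts and the CPM of sensory receptor genes. Alternatives were voom with sample quality weights (limma 3.58.1), DESeq2 1.42.0, scaling by library size, other filters and thresholds, all 19 m6A libraries in 1 fit, library set as a block, the mouse as a block and each library left out. Fits within set 4, the block without KA mouse 8 and the mouse block without shallow inputs were added after the data were seen. Scripts were tested on simulated data. Tables and plots used Python 3.11.15, matplotlib 3.10.9, scipy 1.17.1, numpy 2.4.6 and pandas 2.3.3.

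Named genes are the 5 of smallest p per direction (12 by fold change where 5 or more pass, at a mean of 5 CPM and without overlap, a rule applied to set 4 too), the member of smallest p per list, the m6A genes and the qPCR transcripts of the study, and 5 per direction for each interaction. List members called within set 4 are named after their values were seen. Genes and lists were chosen with earlier results of these data known. Lists were described by counts and medians, and some genes stand in several lists. Some genes that these rules name are left out here.

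Mouse numbers pair pull-down and input because the labels give both to the same animal. In 7 mice with both, deviations from group means correlated at 0.0107 to 0.717. Whether mice shared a litter or day is not given. GGACT was searched on the sense strand of the canonical transcripts of GENCODE, matched by symbol.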

Additional observations from a re-analysis of the deposited data

Results flagged for a closer look

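KA mouse 8 was far from the other 4 KA libraries in 4 library measures, with gap-to-range ratios of 0.940 for the mitochondrial share, 0.974 for Gm10800, 0.806 for the CPM of sensory receptor genes and 0.868 for the median correlation with the other libraries (critical ratio for 5 libraries 0.71). It was also the farthest for Mettl3 (0.759, highest), Alkbh5 (0.913, lowest), Igf2bp2 (0.801, highest) and Atf7ip (0.829, highest). KA mouse 79 was the highest for Nptx2 (0.733), Ch25h (0.801) and Gbp2 (0.832). In all, 11 of 81 values examined passed the critical ratio, 8 of them in KA mouse 8, where chance flags about 1 in 20. What sets KA mouse 8 apart was not tested.

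The KA effect on Tm4sf1 in m6A-bound RNA differed between 24 h and 2 weeks by 2.89 on the log2 scale, by edgeR's test of the difference itself.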

How the results depend on the processing

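The number of genes called between KA and PBS was 1 by edgeR on all 8 libraries. It was 156 by DESeq2 (142 higher, 14 lower), 1121 by voom with sample quality weights (756 and 365), 3 with scaling by library size, 22 with no filter on low counts, 31 with all 19 m6A libraries in 1 fit (30 and 1), 0 with library set as a block (766 at an unadjusted p under 0.05) and 0 to 45 with a library left out. Within library set 4 it was 356, with 1267 by DESeq2 (687 and 580), 386 by voom, 549 with scaling by library size, and 88 without PBS mouse 71, 49 without PBS mouse 73, 382 without KA mouse 97 and 209 without KA mouse 79. With the set as a block and KA mouse 8 left out it was 649. In both block fits the KA effect at 24 h comes from set 4 alone, because sets 3 and 5 held only KA or only PBS mice. The number called stayed at 1 under the other filters and thresholds. The difference between times was called for 5 genes by DESeq2 and 2 with the set as a block. The difference between pull-down and input was called for 88 genes with the mouse as a replicate block and for 8 with that replicate block once mice with a shallow input were left out, which leaves 1 PBS mouse, assumed to vary like the others. It was called for none under the other alternatives. The cause was not tested.

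Of 73 named genes, 6 changed sign under an alternative. Fto (-0.00) was 0.018 by voom, 0.0546 with scaling by library size and 0.00168 with adjusted degrees of freedom, and -0.16 to 0.10 with a library left out. Ythdf1 (0.02) was -0.00213 by DESeq2, -0.0667 with no filter, and -0.0684 to 0.12 with a library left out. Dido1 (-0.16) was 0.16 within set 4 and with the set as a block, with or without KA mouse 8. The block fits take the KA effect from set 4, so their values are not separate from those within set 4. With a library left out Dido1 was -0.44 to 0.0327. Atf7ip (0.06) was -0.0781 by voom, -0.14 with no filter, -0.0500 within set 4, with the set as a block (-0.0500) and with that block without KA mouse 8 (-0.0502), and -0.20 to 0.11 with a library left out. Mettl14 ranged from -0.12 to 0.052 and Mier1 from -0.37 to 0.0458. Shallow libraries (KA mice 67 and 98) limit what genes of low count can show.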
